A study of Mus musculus with 6 samples.

Results

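A set of 8 transcription factor genes of the intestinal epithelium, Osr2, Cdx1, Cdx2, Hnf4a, Hnf4g, Gata6, Klf4, and Klf5, were followed in the injured distal colon of Gm31629-/- and WT mice. They were taken by gene symbol from a table of 27546 genes, and all 8 had a row. The set was put together with the difference between the genotypes already known, so the levels and fold changes of these 8 genes are given as a description, without a test. Gm31629 is a long noncoding RNA gene, and the Gm31629-/- mice carry a deletion within it in every cell. The 3 Gm31629-/- mice and the 3 littermate WT mice were of the C57BL/6 strain, 8 weeks old, and had all received 3% dextran sulfate sodium (DSS), which damages the lining of the colon, with their water over 7 days, and were killed on day 8. No uninjured colon was compared. One RNA-Seq library was made per mouse, and values are FPKM, the fragments of a gene scaled to gene length and to library depth. The methods mention pooled RNA, whereas the table holds 1 column per mouse, and the columns were treated as separate mice.

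The intestinal epithelium keeps its identity through a small network of transcription factors. The homeobox proteins CDX1 and CDX2 set intestinal rather than gastric fate and remain active in the adult crypt and villus, and the nuclear receptors HNF4A and HNF4G drive genes of absorptive cells. GATA6 is a zinc finger factor of gut epithelium, KLF4 is linked to differentiated cells and goblet cells, and KLF5 to proliferating crypt cells. OSR2, a zinc finger protein of the odd-skipped family known from palate, limb, and kidney development, was set apart here as the regional factor. The other 7 were grouped as general intestinal factors. With 1 segment per mouse, the expression of Osr2 and of the other 7 along the gut was not measured.

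The libraries held 18006000 to 18795100 mapped fragments by an estimate from the FPKM values. The genotype could not be checked by the targeted gene, which was not analysed here. The methods name male mice, but transcripts of 4 Y-linked genes were found in Gm31629-/- mouse 1 alone, and Xist, which is transcribed from the inactive X chromosome of females, was above 1 FPKM in the other 5 libraries. For the 8 factors, values that rest on that mouse are therefore given with and without it. Genes outside the 8 factors were called in a limma fit at an adjusted p under 0.05 and a log2 difference above 1 or below -1. Of all 14657 tested genes 4.64% were called lower and 18.4% higher in Gm31629-/- mice. Epithelial RNA was present in every library, but the summed level of its markers was lower in Gm31629-/- mice. The summed FPKM of 12 epithelial markers was 7790.1 to 9633 in Gm31629-/- mice and 12076 to 13231 in WT mice, and 4 of the 12 were called lower and none higher (2 without Gm31629-/- mouse 1). Single markers were uneven, and 10 had a negative and 2 a positive log2 difference. The mean of Krt8 was 2042 FPKM in Gm31629-/- mice against 4198 FPKM in WT mice, and that of Epcam 1109 against 1104 FPKM. Summed markers of other cells were higher in Gm31629-/- mice. For 12 smooth muscle markers the summed FPKM was 1323 to 2050.4 against 25.7 to 45.8, and 10 of the 11 tested were called higher. In the same way 9 of 10 markers of enteric neurons and glia (40.1 to 137 against 2.82 to 5.41), 7 of 7 of fibroblasts (199 to 565 against 17.4 to 37.6), 6 of 6 of endothelium (42.0 to 114 against 3.32 to 7.76), and 7 of 7 myeloid markers (105 to 232 against 8.72 to 14.4) were called higher. Of the adipocyte markers 2 of 3 tested were called higher (33.6 to 84.2 against 9.89 to 19.1; 0 without WT mouse 1), and of the squamous epithelial markers 0 of 2 (1.42 to 4.29 against 0.472 to 0.528). Their part in the differences below was not tested, and in tissue RNA fewer cells of a type and less RNA per cell cannot be told apart. Nor can genotype be told apart here from a difference in the layers or segment of colon sampled, which was not tested.

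**Figure D1:**
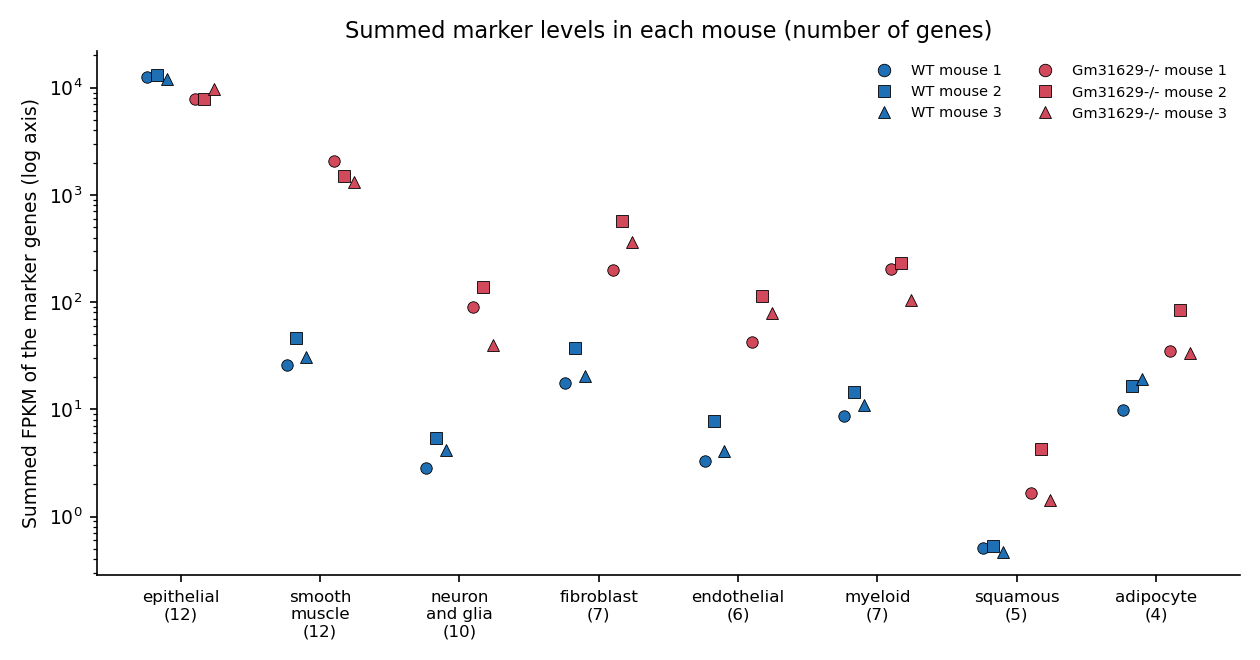
Summed FPKM of the marker lists in each mouse on a log axis. The epithelial sums are 7790.1 to 9633 in Gm31629-/- mice and 12076 to 13231 in WT mice, and the sums of smooth muscle, neuron and glia, fibroblast, endothelial, myeloid, squamous, and adipocyte markers are higher in every Gm31629-/- mouse than in any WT mouse.

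Osr2 had the lowest mean of the 8 factors in Gm31629-/- mice, where it overlapped with Hnf4g, and was well expressed in WT mice. Osr2 (ENSMUSG00000022330, chr15:35296098-35303305, plus strand, GRCm38) measured 0.820, 1.20, and 0.663 FPKM in Gm31629-/- mice 1 to 3 and 77.0, 95.9, and 105.7 FPKM in WT mice 1 to 3. The lowest WT mouse was far above the highest Gm31629-/- mouse. The values rested on 55, 80, and 44 fragments in Gm31629-/- mice and on 5160, 6258, and 7198 fragments in WT mice, so the gene was still detected in every mutant. The means, 0.893 ± 0.273 FPKM and 92.9 ± 14.6 FPKM (SD, n = 3 each), differed by 104-fold. On the log2(FPKM + 1) scale, which understates the change of low values, the difference was -5.63 (SE 0.18), and 0.0273% of the 14657 genes with a mean of at least 0.5 FPKM had a lower one. Without Gm31629-/- mouse 1 the fold was 99.9.

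Cdx2 came next, and it was uneven among the Gm31629-/- mice. Cdx2 (ENSMUSG00000029646, chr5:147300805-147307270, minus strand) measured 82.1, 11.6, and 14.9 FPKM in Gm31629-/- mice and 200.4, 238, and 234 FPKM in WT mice. The groups did not overlap, but Gm31629-/- mouse 1 lay well above the other mutants. The means differed by 6.19-fold (36.2 ± 39.8 against 224 ± 20.7 FPKM, SD, n = 3 each; log2 difference -3.14, SE 0.65). Mouse 1 alone was 2.73-fold below the WT mean, and the other 2 mutants together were 16.9-fold below it. The coefficient of variation was 110% in Gm31629-/- mice and 9.24% in WT mice.

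Upstream sequence was at hand for 3 of the 8 factors, Cdx2, Hnf4a, and Klf4, from RefSeq (GRCm38.p6), and 2 are shown for contrast, since Cdx2 had the largest and Klf4 the smallest difference of the 3. Each is the part of the 250 bases before the start site that lies outside annotated exons, on the strand of the gene.
Cdx2 (chr5:147307271-147307499, minus strand): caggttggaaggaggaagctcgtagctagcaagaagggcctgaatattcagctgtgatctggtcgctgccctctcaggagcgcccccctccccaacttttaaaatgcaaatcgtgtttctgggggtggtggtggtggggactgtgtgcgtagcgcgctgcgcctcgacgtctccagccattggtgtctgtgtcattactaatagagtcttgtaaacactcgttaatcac
Klf4 (chr4:55532476-55532725, minus strand): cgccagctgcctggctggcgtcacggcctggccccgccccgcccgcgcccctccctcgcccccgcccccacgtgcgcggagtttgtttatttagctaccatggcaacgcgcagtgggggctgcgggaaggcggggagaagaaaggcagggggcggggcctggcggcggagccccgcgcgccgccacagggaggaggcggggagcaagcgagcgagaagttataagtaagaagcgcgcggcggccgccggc
The Cdx2 sequence has 53.7% G and C and the Klf4 sequence 74%. Letters typical of binding sites for these families were searched on both strands in the 3 sequences, CAATAAA for CDX, CAAAGTCCA for HNF4, AGATAA for GATA, and CACACCC for KLF. None of them occurred, which says only that these letters are not in these windows. Of 32851 promoter windows 4.2%, 0.384%, 9.99%, and 6.93% held them, counted on the full 250 bases with exons left in. Another start site of Hnf4a was not searched, since an exon lay in its window.

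**Figure D2:**
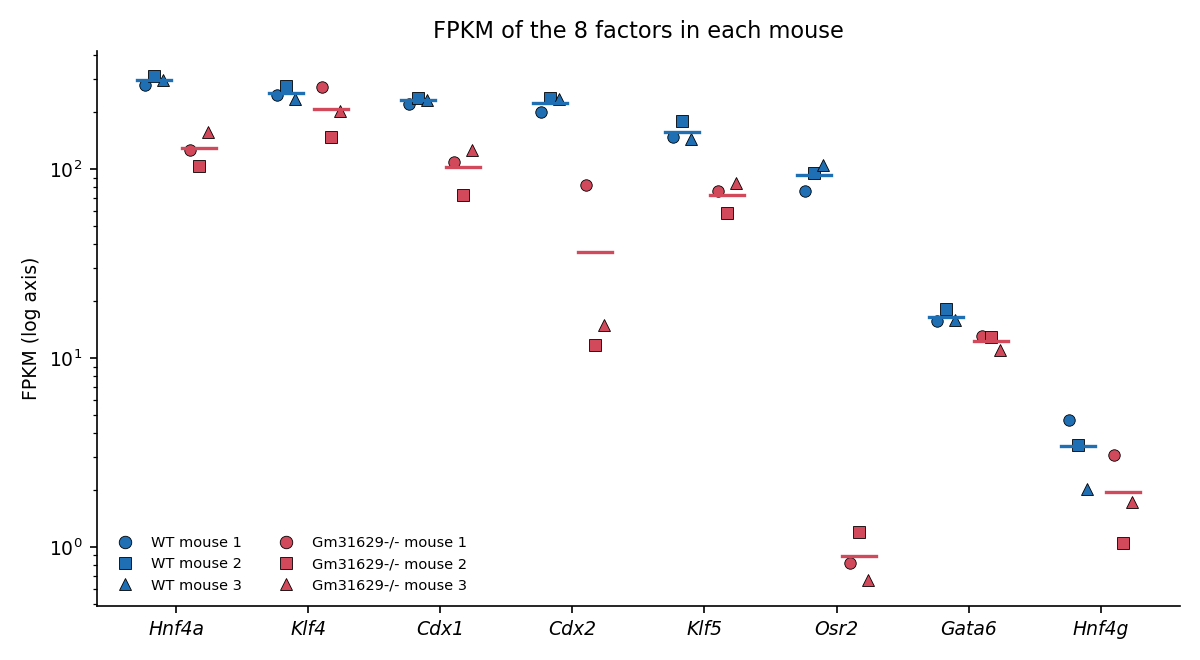
FPKM of the 8 factors in each mouse on a log axis, with Gm31629-/- and WT mice as separate points and a bar at each group mean. Osr2 shows the widest gap between the groups, Cdx2 is split among the mutants (82.1 against 11.6 and 14.9 FPKM), and the points of Hnf4g and Klf4 overlap.

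Cdx1, Hnf4a, and Klf5 were each a little more than 2-fold lower in Gm31629-/- mice, with no overlap between the groups. Cdx1 (chr18:61018862-61036199, minus strand) measured 109.6, 73.0, and 126.4 FPKM in Gm31629-/- mice and 222, 237, and 233 FPKM in WT mice, a 2.24-fold difference of the means (log2 -1.19, SE 0.22). Hnf4a (chr2:163506808-163572910, plus strand) measured 127, 104, and 157 FPKM against 278, 311, and 296 FPKM, a 2.28-fold difference (log2 -1.20, SE 0.18). Klf5 (chr14:99298691-99315036, plus strand) measured 76.9, 58.2, and 84.3 FPKM against 148, 179, and 145 FPKM, a 2.15-fold difference (log2 -1.11, SE 0.18). In all 3 genes Gm31629-/- mouse 2 was the lowest of the mutants. The library kit does not mark strand, and the antisense gene Hnf4aos, which overlaps Hnf4a, reached at most 0.0570 FPKM in any library.

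Gata6, Klf4, and Hnf4g were nearer to their WT levels. Gata6 (chr18:11052064-11085635, plus strand) measured 13.1, 12.9, and 11.0 FPKM in Gm31629-/- mice and 15.7, 18.1, and 15.8 FPKM in WT mice. The groups did not overlap, and the means differed by 1.34-fold (log2 -0.40, SE 0.14, but 0.18 when the libraries were rescaled to the epithelial markers). The overlapping antisense gene 1010001N08Rik was at most 1.21 FPKM. Klf4 (chr4:55527143-55532466, minus strand) measured 272, 148, and 203 FPKM against 246, 274, and 236 FPKM. Gm31629-/- mouse 1 was thus above 2 of the WT mice, and the groups overlapped (log2 -0.32, SE 0.23, but 0.29 after the epithelial rescaling). Without mouse 1 they did not overlap (log2 -0.53). Hnf4g (chr3:3508030-3658052, plus strand) measured 3.08, 1.05, and 1.72 FPKM against 4.71, 3.46, and 2.02 FPKM, again with overlap (log2 -0.59, SE 0.32, and -0.16 after the epithelial rescaling). Here too the groups did not overlap without Gm31629-/- mouse 1 (log2 -0.85). The share of all tested genes that separate with that mouse left out is not given, so nothing is read from the separation of Klf4 and Hnf4g. Hnf4g was the least expressed factor in WT mice, with 51 to 149 fragments in Gm31629-/- mice and 100 to 229 in WT mice.

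Of the 8 factors, 6 had groups that did not overlap with Gm31629-/- mice lower, as did 21.5% of the 14657 tested genes, and 0 had them higher, as did 36.3% (57.8% in either direction). Since the genes were picked on this contrast, nothing is read from that count. The median log2 difference of the 8 factors was -1.15, and of the 6 factors other than Osr2 and Cdx2 -0.85, beside 0.15 over all tested genes.

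**Figure D3:**
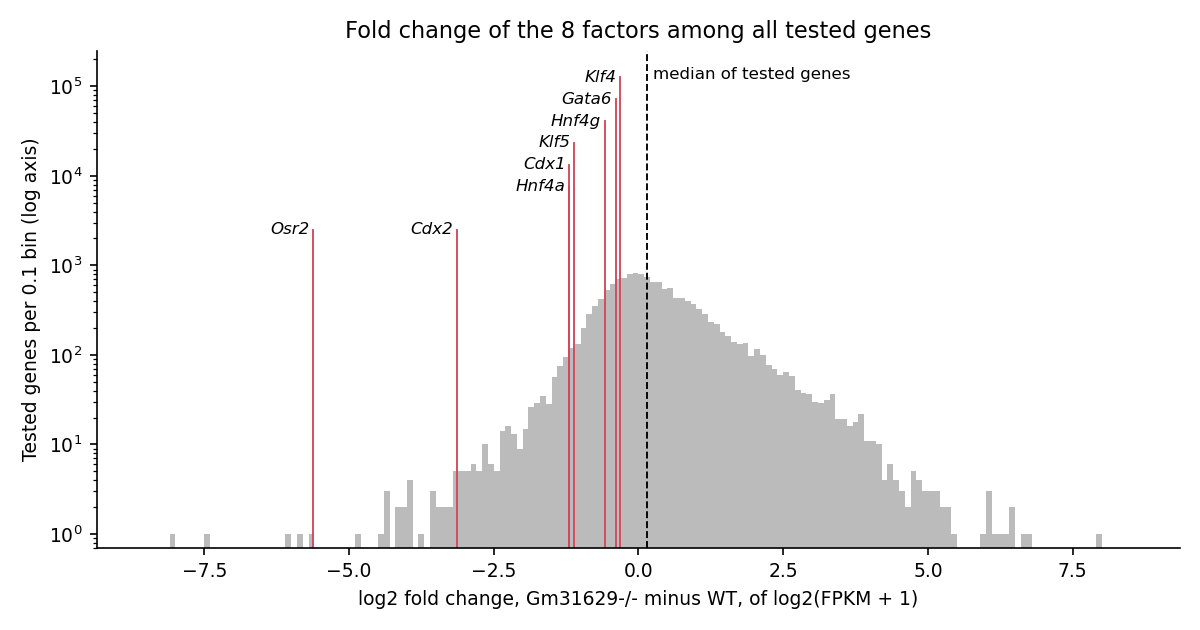
Histogram of the log2 difference in FPKM + 1 (Gm31629-/- minus WT) over the 14657 tested genes in bins of 0.1 with a log count axis, a dashed line at their median, and a line for each of the 8 factors whose height has no meaning. Osr2 (-5.63) and Cdx2 (-3.14) lie in the far left tail, Hnf4a, Cdx1, and Klf5 between -1.20 and -1.11, and Hnf4g, Gata6, and Klf4 between -0.59 and -0.32.

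The order of the factors therefore differed between the genotypes. In WT mice the mean levels ran, from the highest, Hnf4a, Klf4, Cdx1, Cdx2, Klf5, Osr2, Gata6, and Hnf4g. Of neighbours in that order, only Klf4 with Cdx1 and Cdx1 with Cdx2 had overlapping ranges over the mice, and within each WT library Klf4 was above Cdx1. In Gm31629-/- mice they ran Klf4, Hnf4a, Cdx1, Klf5, Cdx2, Gata6, Hnf4g, and Osr2, where only Gata6 and Hnf4g had separate ranges over the mice as neighbours. Within each Gm31629-/- library, however, Klf4, Hnf4a, Cdx1, and Klf5 stood in this order. FPKM is per kilobase of gene length, so these levels can be set beside each other.

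Ratios within a library, which do not depend on its depth, did not overlap between the genotypes for the CDX and the KLF pair but did for the HNF4 pair. The ratio of Cdx2 to Cdx1 was 0.749, 0.160, and 0.118 in Gm31629-/- mice, against 0.903, 1.00, and 1.01 in WT mice. All 3 mutants were below all WT mice, mouse 1 only slightly. The ratio of Klf4 to Klf5 was 3.54, 2.55, and 2.41 in Gm31629-/- mice, against 1.66, 1.53, and 1.63 in WT mice, higher in every mutant. The ratio of Cdx1 to Hnf4a was close in both genotypes, 0.791 ± 0.0831 in Gm31629-/- mice and 0.783 ± 0.0184 in WT mice (SD, n = 3 each). The ratio of Hnf4a to Hnf4g overlapped, at 41.2 to 99.1 and 59.0 to 146. The share of other gene pairs that separate is not given, and the factors were picked on this contrast, so nothing is read from the separation.

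The factors were also set against the epithelial markers of the same library, as the log2 of FPKM + 1 of the factor less the mean over the 12 markers. That mean was 8.47 ± 0.17 in Gm31629-/- mice and 9.08 ± 0.07 in WT mice (SD, n = 3 each), a difference of -0.61. Relative to it, 5 factors were lower in every Gm31629-/- mouse than in any WT mouse, by -5.02 for Osr2, -2.53 for Cdx2, -0.59 for Hnf4a, -0.58 for Cdx1, and -0.50 for Klf5. The share of all tested genes on this scale is not given, and the factors were picked on this contrast, so nothing is read from the count. For Cdx2 the relative values were -2.04, -4.68, and -4.67 in Gm31629-/- mice and -1.42, -1.25, and -1.14 in WT mice. The relative levels of Hnf4g (difference 0.02), Gata6 (0.21), and Klf4 (0.29) overlapped between the groups. The difference of Hnf4g was -0.27 without Gm31629-/- mouse 1 and -0.19 without WT mouse 3, so its sign rested on single mice. The 12 markers were themselves uneven, from a log2 difference of -1.63 for Esrp1, a splicing regulator, to 0.18 for Muc13, a membrane mucin, with Epcam at 0.01 and Cdh1 at -0.04, which encode adhesion proteins (0.79, 0.61, and 0.57 after the epithelial rescaling).

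**Figure D4:**
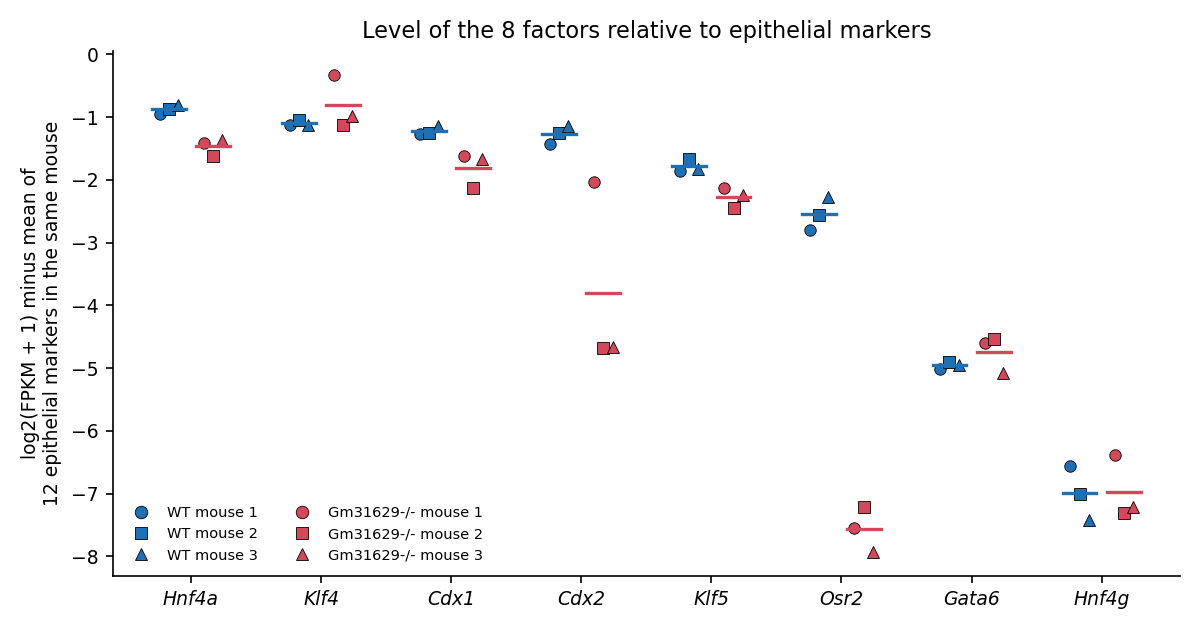
Log2 level of each factor relative to the mean of 12 epithelial markers in the same library, for each mouse (points) with group means (bars). Osr2, Cdx2, Hnf4a, Cdx1, and Klf5 lie lower in all 3 Gm31629-/- mice than in the WT mice, while Hnf4g, Gata6, and Klf4 overlap.

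To place the 8 factors among other factors of the gut, 6 lists with 55 genes were read from a limma fit over all tested genes, in which a gene was called at an adjusted p under 0.05 and a log2 difference above 1 or below -1. By this rule 4.64% of all tested genes were called lower and 18.4% higher in Gm31629-/- mice, 23.1% in all. Of the 55 genes 40 were tested, 5 (12.5%) were called lower and 8 (20%) higher. With the libraries rescaled to the epithelial markers 1 factor, Isx, was called lower and 11 were called higher.

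Among other factors of epithelial cells, 2 of 11 tested fell and none rose, with a median log2 difference of -0.70 (-0.10 after the epithelial rescaling). Those called were Grhl2 (-1.04, SE 0.16, adjusted p = 0.00282) and Ovol2 (-1.08, SE 0.25, adjusted p = 0.0121), which maintain epithelial adhesion and were named after their values were seen. The call of Grhl2 was lost on the fold threshold without Gm31629-/- mouse 2 (-0.93), and that of Ovol2 without Gm31629-/- mouse 1 (-0.88) or WT mouse 3 (adjusted p = 0.0508). Vdr, the vitamin D receptor, had the lowest log2 difference of the list, -1.27, but did not pass (adjusted p = 0.0885), with 69.8, 17.1, and 77.0 FPKM in Gm31629-/- mice and 97.3 to 119 FPKM in WT mice. The next lowest, the nuclear receptor gene Nr5a2 (-1.15, adjusted p = 0.0786) and Ovol1 (-1.13, adjusted p = 0.0647), did not pass either, but Nr5a2 was called without Gm31629-/- mouse 1 (-1.58) and Ovol1 without Gm31629-/- mouse 3 (-1.49). At the other end stood Ehf (0.14), Foxa3 (-0.20), and Nr1i2 (-0.32), none of which was called.

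Of the small-intestinal factors 1 of 4 tested fell and none rose. Isx, an intestine-specific homeobox gene that represses the carotenoid-cleaving enzyme, measured 14.5, 13.1, and 16.5 FPKM in Gm31629-/- mice and 137, 132, and 168 FPKM in WT mice, 9.90-fold lower (log2 -3.22, SE 0.16, adjusted p = 0.000111). Gata4, a relative of Gata6 that marks the proximal small intestine, was low in every library, with 3, 16, and 5 fragments in Gm31629-/- mice and 76, 63, and 66 in WT mice, and stayed short of the fold threshold (log2 -0.81, adjusted p = 0.00484), which it passed with a pseudocount of 0.1. Gata5 had a log2 difference of -0.61. Creb3l3 measured 18.2, 4.69, and 8.63 FPKM in Gm31629-/- mice and 4.70, 6.59, and 7.09 FPKM in WT mice (log2 0.53). Pdx1 and Onecut2 were below the filter. The median of these 4 genes, -0.71, depended on how low values were treated (-2.03 with a pseudocount of 0.1 and -2.78 with voom). Without a filter Pdx1 and Onecut2 were counted too, and the median of the list was -0.30.

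Of 3 colonic and hindgut factors 2 rose and none fell, with a median of 3.15. Hoxb13, a posterior Hox gene of the hindgut, rose to 59.0, 57.0, and 133 FPKM from 13.3, 5.66, and 6.03 FPKM (log2 3.15, SE 0.41, adjusted p = 0.00155). Hoxd13, of the same paralog group, measured 8.12, 19.2, and 16.4 FPKM in Gm31629-/- mice and had no fragment in any WT mouse, at least 668-fold higher when WT is set at 3 fragments over the group. The WT libraries, described as distal colon, did hold Hoxb13 and Hoxa13 (17.7, 13.4, and 7.73 FPKM) in every mouse. They were also low in the muscle and connective tissue markers given above, and the reason for the absence of Hoxd13 was not tested. Hoxa13 was not called (log2 0.89, adjusted p = 0.0976), but was called higher without Gm31629-/- mouse 2 (1.25, adjusted p = 0.0264). It was also called higher after the epithelial rescaling (1.47, adjusted p = 0.00842).

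Among factors of foregut and squamous epithelium only Pitx1, a hindlimb and foregut homeobox gene, was tested, and it rose to 6.51, 21.7, and 21.6 FPKM from 0.672, 2.13, and 1.06 FPKM (log2 2.83, SE 0.46, adjusted p = 0.00346). Sox2, Trp63, and Pax9 were below the filter, with Sox2 at 0.344 to 0.896 FPKM in Gm31629-/- mice and without a fragment in WT mice.

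**Figure D5:**
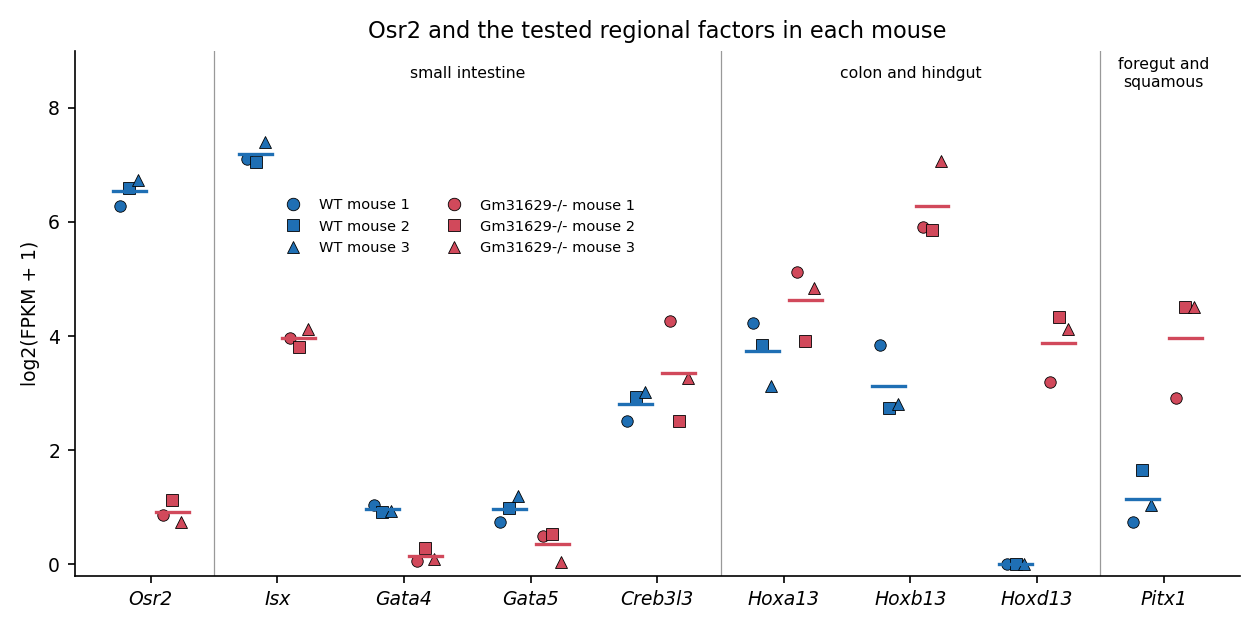
Log2(FPKM + 1) of Osr2 and of the tested small-intestinal, colonic and hindgut, and foregut and squamous factors in each mouse (points) with group means (bars). Osr2, Isx, Gata4, and Gata5 lie lower in all 3 Gm31629-/- mice, and Hoxb13, Hoxd13, and Pitx1 higher, with Hoxd13 at 0 in the 3 WT mice.

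Of the crypt and lineage factors 2 of 8 tested fell and none rose, with a median of -0.87 (-0.27 after the epithelial rescaling, when none was called). Sox9, a factor of crypt base cells, was lower by a log2 difference of -1.12 (SE 0.16, adjusted p = 0.00228), and Myb, which acts in crypt progenitors, by -1.22 (SE 0.23, adjusted p = 0.00592). Ascl2, a stem cell factor, was listed at 3.90 and 6.06 FPKM in WT mice 1 and 3 but at 0.171 FPKM in WT mouse 2, within the 0.134 to 0.201 FPKM of Gm31629-/- mice, and was not called (adjusted p = 0.0736). Without WT mouse 2 it was called lower (log2 -2.33, adjusted p = 0.00267), as was the goblet cell factor Spdef (-1.03, adjusted p = 0.0114), named after its values were seen, so that 4 were called. Spdef was just short of the fold threshold in the full fit (-0.97, adjusted p = 0.00309). It was also called lower without Gm31629-/- mouse 2 (-1.07) or WT mouse 3 (-1.002). Hes1 (-0.08), Gfi1 (-0.28), and Neurod1 (0.30) were not called.

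Among paralogs of the 8 factors, 5 of 13 tested rose and none fell, with a median of 0.69. The list held 20 genes, of which 19 had a row. Osr1, the only paralog of Osr2, measured 4.13, 5.80, and 4.08 FPKM in Gm31629-/- mice (157, 221, and 155 fragments), and 1 fragment was found in the 3 WT libraries together (log2 2.48, SE 0.17, adjusted p = 0.000235). The odd-skipped genes were thus exchanged in rank, with Osr2 above Osr1 in every WT mouse and below it in every Gm31629-/- mouse. Klf2, an endothelial and lymphocyte factor, measured 28.6, 42.2, and 25.5 FPKM against 1.52, 1.92, and 1.58 FPKM (log2 3.60, SE 0.21, adjusted p = 0.000139). Klf15 (2.02, adjusted p = 0.0178), Klf9 (1.42), and Gata2 (1.05, a factor of blood and endothelium) were also called, the latter pair named after their values were seen. Klf15 was uneven, at 10.4, 2.70, and 1.56 FPKM in Gm31629-/- mice and 0.0775, 0.0398, and 0.438 FPKM in WT mice. The call of Klf15 was lost without WT mouse 1 or 2 and that of Gata2 without Gm31629-/- mouse 2 (0.97), and Klf16 (-0.53), Gata3 (-0.39), and Klf13 (-0.03) were not called. The markers of muscle, connective tissue, and vessels given above were higher in the same mice, and their part was not tested.

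Known targets of the CDX and HNF4 factors were read from the same fit. Of 5 tested CDX targets 1 fell, and the median was -0.29 (0.32 after the epithelial rescaling). Gucy2c, the guanylin receptor, measured 81.9, 27.9, and 49.7 FPKM in Gm31629-/- mice and 120, 144, and 145 FPKM in WT mice (log2 -1.46, SE 0.35, adjusted p = 0.0149; 0.0588 without WT mouse 3), and was not called after the epithelial rescaling (-0.86, adjusted p = 0.0593). Cdh17, an intestinal cadherin, Gpa33, Muc2, and Krt20 were not called, with log2 differences of -0.26 to -0.33 (0.27 to 0.35 after the epithelial rescaling). Sis, the sucrase-isomaltase gene, and Lct were below the filter. Sis had 9, 9, and 2 fragments in Gm31629-/- mice and 57, 63, and 36 in WT mice. Lct had 7, 0, and 1 fragments against 3, 1, and 0. Of 5 tested HNF4 targets 1 fell and none rose, although Apob (1.82, adjusted p = 0.0288) and Ttr (1.43, adjusted p = 0.0234) were called higher after the epithelial rescaling. Fabp2, the intestinal fatty acid binding protein, measured 26.8, 5.0, and 5.98 FPKM against 67.4, 78.2, and 59.0 FPKM (log2 -2.71, SE 0.54, adjusted p = 0.00750). Apob was not called (1.31, adjusted p = 0.115), with 32.9 FPKM in Gm31629-/- mouse 1 and 5.23 and 7.56 FPKM in the other mutants, though it was called higher without Gm31629-/- mouse 2 (adjusted p = 0.0497). Apoa1 and Ttr (0.93 each) and Mttp (0.11) were not called, except Apoa1 without Gm31629-/- mouse 3 (1.39, adjusted p = 0.0281), and the median was 0.93 (0.42 without Gm31629-/- mouse 1). Mttp measured 7.43, 0.812, and 0.649 FPKM in Gm31629-/- mice and 1.63, 1.04, and 2.75 FPKM in WT mice, so its positive sign rested on Gm31629-/- mouse 1.

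The genes whose profile over the 6 libraries was most like that of Osr2 were ranked by the root mean square difference of their log2 values, each taken from its own WT mean. They were Cldn2 (0.301), which encodes a claudin of leaky tight junctions, Slc51a (0.646), a subunit of the basolateral bile acid transporter, Cyp2c65 (0.842), Mal (0.90), and Cldn15 (0.963). Cldn2 measured 0.311, 0.342, and 0.278 FPKM in Gm31629-/- mice and 80.1, 55.6, and 90.3 FPKM in WT mice. For Cdx2, a comparison added after its values were seen, they were Sptssb (0.360), Guca2b (0.360), which encodes uroguanylin, Fabp2 (0.363), Hkdc1 (0.392), and Btnl1 (0.520). Guca2b measured 19.1, 2.68, and 2.69 FPKM against 37.7, 38.9, and 43.0 FPKM, so that Gm31629-/- mouse 1 stood between the other mutants and the WT mice, as it did for Cdx2.

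The nearest tested genes on either side of the 8 factors, 15 in all, were read to see whether a difference extended along the chromosome. Of these 1 was called lower, 3 higher, and 11 neither, beside 4.64% and 18.4% of all tested genes. The counts of neighbours called lower and called higher were thus both near the background. Urad, an enzyme of urate breakdown whose gene lies 7.71 kb from Cdx2, had no fragment in Gm31629-/- mice and 1.91, 2.83, and 1.81 FPKM in WT mice, at least 30.6-fold lower when Gm31629-/- is set at 3 fragments over the group (adjusted p = 0.000657). Polr1d, on the other side of Cdx2, was not called (log2 -0.35). Beside Osr2, Stk3 was higher (1.30, adjusted p = 0.00698) and Vps13b did not reach the fold threshold (-0.83; -1.02 and called without Gm31629-/- mouse 1). Pdgfrb beside Cdx1 (1.91) and Rbbp8 beside Gata6 (1.02) were the other genes called higher, and the call of Rbbp8 was lost without Gm31629-/- mouse 1 or 2 or WT mouse 2 or 3.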

How the data were processed

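RNA-Seq libraries of distal colon from 3 Gm31629-/- and 3 WT mice were analysed from 1 deposited table of FPKM values. Per the labels and the submitters' processing notes, the authors used HISAT2 2.1.0, HTSeq 0.6.0, and GRCm38, and FPKM were deposited after division by gene length and depth. The role of each tool and the annotation are not given in the sources used here. Libraries were grouped by the genotype in their labels. Symbols and positions came from GENCODE M21 and matched 27488 of 27546 identifiers.

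Fragments were recovered from the size of 1 fragment at each exon length. Among values worth at most 20 fragments, between 96.3% and 97.2% in a library came out whole, with a tolerance of 0.1. Floors of 3 fragments cover counting error only. Genes with a mean of at least 0.5 FPKM were fitted with limma 3.58.1 (lmFit, eBayes with a trend, R 4.3.3) on log2(FPKM + 1), adjusting p over the 14657 genes by Benjamini-Hochberg, in place of the study's DEGseq, which needs counts. With 3 mice per group an exact permutation test of 1 gene cannot go below p = 0.1. Replicates differed by more than counting noise, with a chi-square per gene of 32.8 to 166, and p-values measure the spread between these libraries.

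The 8 factors and all gene lists were chosen with earlier results of these data known. Named are the 8 factors, up to 3 genes at each end of a list (any gene in lists of 8 or fewer), the 5 genes most like Osr2, and the nearest tested genes. Some listed genes are not reported here, and the lists were counted without them. Sucrase-isomaltase was looked up as Sis. The scripts were tested on simulated data. Alternatives were a pseudocount of 0.1, other filters (none, or a mean of 5 FPKM), 3 rescalings (to equal sums, by the median ratio, to the epithelial markers), eBayes without a trend, a replicate block, voom on the recovered fragments, adjusted p alone, and leaving out each mouse. Figures were drawn with matplotlib 3.10.9.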

Additional observations from a re-analysis of the deposited data

How the results depend on the processing

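Rescaling each library to the epithelial markers moved the median of all tested genes from 0.15 to 0.61, as follows from its construction. Genes called higher and lower went from 2704 and 680 (79.9% higher) to 4480 and 250 (94.7% higher). The factors of the 6 lists called lower went from 5 to 1, and those called higher from 8 to 11. The log2 differences became -5.17 for Osr2, -0.59 for Cdx1, -0.60 for Hnf4a, and -0.50 for Klf5, and turned to 0.18 for Gata6 and 0.29 for Klf4. The medians of the CDX targets (0.32) and of the epithelial markers (0.10) turned as well. Rescaling by the median ratio gave -0.56 for Gata6 and 70.5% of calls higher. Osr2 was -6.57 with a pseudocount of 0.1, -6.23 with libraries rescaled to equal sums, and -6.72 with voom. With a pseudocount of 0.1 the level relative to the epithelial markers was -5.95 for Osr2 and turned to -0.20 for Hnf4g. A mean of at least 5 FPKM left 956 genes called higher (66.0% of calls), with 5 listed factors higher and 3 lower, and adjusted p alone gave 4238 higher, 2138 lower, and 11 listed factors lower. For these other alternatives the cause was not tested.

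With each mouse left out, 2285 to 2892 genes were called higher and 513 to 766 lower, and 7 to 8 listed factors higher and 5 to 7 lower. The log2 differences ranged from -5.76 to -5.53 for Osr2, -3.99 to -2.63 for Cdx2, -1.36 to -0.96 for Cdx1, -1.35 to -1.06 for Hnf4a, -1.22 to -0.95 for Klf5, -0.85 to -0.35 for Hnf4g, -0.44 to -0.32 for Gata6, and -0.53 to -0.10 for Klf4. Relative to the epithelial markers they ranged from -5.20 to -4.84 for Osr2, -3.41 to -2.08 for Cdx2, -0.67 to -0.42 for Cdx1, -0.65 to -0.51 for Hnf4a, -0.57 to -0.41 for Klf5, -0.27 to 0.24 for Hnf4g, 0.12 to 0.38 for Gata6, and 0.05 to 0.45 for Klf4.

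The replicate numbers did not pair the mice (correlations of deviations 0.0358, -0.108, and 0.0141), and with the replicate block 2709 genes were called higher and 648 lower, and 1 HNF4 target was called higher. Depth limits the values of Osr2 in Gm31629-/- mice and of Hnf4g, Gata4, Urad, and Osr1, which rest on few fragments.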
